A study of Mus musculus with 6 samples.

Results

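The BCL2 family decides whether the outer membrane of the mitochondrion stays closed or opens in a cell under death signals. The 10 family genes described here were Bcl2, Bcl2l1, Mcl1, Bcl2a1b, Bcl2a1d, Bcl2l11, Bax, Bak1, Bid and Pmaip1. They were taken by name: each is a row whose Ensembl identifier, without its version, belongs to one of these mouse symbols. They made 10 of the 52550 genes in the deposited gene table, and 38 of the 131146 transcripts in the transcript table. RNA of wild-type (WT) mouse splenic CD3+ T cells was sequenced after 24 h with anti-CD3/CD28 activators, in 3 samples with the activators alone (TCR alone) and in 3 samples that also received the small molecule DMGV at 100 ng/ml (TCR+DMGV). All 6 samples were activated, so the comparison asks what the added compound changed on top of activation, and resting T cells were not part of it. The labels number the samples as biological replicates. The identity of the compound is uncertain: the labels name DMGV, while the study's text describes sequencing of such cells at the same dose and time with LNY1, its name for a factor made up of the dimethylarginines ADMA and SDMA, from which cells form DMGV. These are different molecules, and the counts cannot tell which was added, so TCR+DMGV below is the name of a group as labelled. Age, sex and strain were not given in these samples' labels.

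As background, the family has 3 kinds of member. Pro-survival members such as BCL2, BCL-XL (from Bcl2l1), MCL1 and A1 (from the Bcl2a1 genes) hold the killers in check. The effectors BAX and BAK form the pore in the mitochondrial outer membrane through which cytochrome c leaves. The BH3-only members BIM (from Bcl2l11), BID and NOXA (from Pmaip1) sense stress and either bind the pro-survival members or switch on the effectors. In T cells BCL2 supports resting cells, BCL-XL and A1 are induced upon activation through CD28 and NF-kB, MCL1 is needed throughout and turns over fast, and BIM removes cells at the end of a response.

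At 24 h all 10 genes were read in all 6 samples, and none differed between TCR alone and TCR+DMGV beyond the spread between replicates. By edgeR's quasi-likelihood test on the counts (two-sided, Benjamini-Hochberg adjustment over all genes tested), 0 of the 10 passed an adjusted p of 0.05, each with an adjusted p of 0.999, while 2 of the 14786 genes tested did (0.0135%). At an unadjusted p under 0.05 the count was 0 of 10, against 471 of all genes tested (3.19%), and DESeq2 also called 0 of the 10. TCR+DMGV was higher for 5 members and lower for 5. The median log2 fold change of the 10 was 0.01, against 0.0024 over all genes tested, and the median size of the change was 0.08 against 0.12. In 0 of the 10 did the CPM values of the groups separate, where 8.86% of all genes tested did. CPM are counts per 1000000 counts of the sample, scaled by edgeR's TMM method. No exact permutation test of 3 against 3 samples can reach a p under 0.1.

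Summed gene counts ran from 37758725 to 43718867 per sample. On the first principal component, which held 32.2% of the variance, TCR alone replicate 3 and TCR+DMGV replicate 1 scored 42.1 and 42.9, whereas the other 4 samples scored from -34.9 to -10.5. Fold changes without this pair are given further on. The T cell label held: the summed CPM of 10 T cell markers was 2795 to 3161 in TCR alone and 3013 to 3352 in TCR+DMGV. Those of 6 B cell markers, 6 macrophage and monocyte markers and 5 dendritic cell markers stayed at or under 11.6 in every sample. Cd14, Siglech and Clec9a were at 0 throughout, and of 6 neutrophil markers 5 were at 0 and the sum did not exceed 0.105. The 4 NK markers summed to 71.5 to 82.8, mostly Eomes, which T cells also express. Erythroid markers, at 3.721 to 4.93 in TCR alone and 1.75 to 3.716 in TCR+DMGV, were the only such list whose groups did not overlap. The gap was narrow, and no gene of that list exceeded 1.86 CPM in any sample. The part of these markers in the members' values was not tested. In bulk samples fewer cells of a type and less RNA per cell cannot be told apart.

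Sequences matter for reading 2 of the genes. Bcl2a1b and Bcl2a1d, with Bcl2a1a, are copies of one ancestral A1 gene on chromosome 9. Their coding sequences have 519 bases each with the stop codon (GENCODE M21 transcripts, GRCm38). Bcl2a1b and Bcl2a1d differ at 6 of them (98.8% identity), Bcl2a1a and Bcl2a1d at 7 (98.7%), and Bcl2a1a and Bcl2a1b at 11 (97.9%). The longest run without a difference between Bcl2a1b and Bcl2a1d is 217 bases. The first 150 coding bases hold the most differences of any 150-base stretch and are shown to let the copies be compared, with capitals at the 7 positions where the 3 are not all alike. They lie at chr9:88957051-88957200 (forward strand) for Bcl2a1a, chr9:89199360-89199509 (forward) for Bcl2a1b and chr9:88731570-88731719 (reverse) for Bcl2a1d.
Bcl2a1a: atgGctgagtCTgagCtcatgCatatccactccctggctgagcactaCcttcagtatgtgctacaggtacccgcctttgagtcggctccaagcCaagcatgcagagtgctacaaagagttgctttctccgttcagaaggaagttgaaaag
Bcl2a1b: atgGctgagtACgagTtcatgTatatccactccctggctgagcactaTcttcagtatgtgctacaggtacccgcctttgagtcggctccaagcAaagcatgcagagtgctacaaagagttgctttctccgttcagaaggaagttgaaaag
Bcl2a1d: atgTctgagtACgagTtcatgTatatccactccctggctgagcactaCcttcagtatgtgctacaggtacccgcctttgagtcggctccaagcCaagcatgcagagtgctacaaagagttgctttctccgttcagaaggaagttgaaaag
Of the 100-base windows of the whole transcript, 31.1% of those of Bcl2a1b and 54.7% of those of Bcl2a1d are found unchanged in another of the 3. How the authors' counting divided reads between the copies is not stated, so the values of Bcl2a1b and Bcl2a1d are uncertain as single genes.

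Bcl2l11 is read as several BIM isoforms, and the difference between them lies in short stretches of coding sequence. The isoform BimEL (Bcl2l11-205, 588 coding bases as annotated) carries a stretch of 168 bases at chr2:128128757-128128924 (GRCm38, forward strand) that BimL (Bcl2l11-203, 420 coding bases) lacks. BimL in turn carries a stretch of 90 bases at chr2:128128925-128129014 that BimS (Bcl2l11-201 and Bcl2l11-204, 330 coding bases) lacks. Both stretches are shown because the isoforms are told apart by reads that cover or skip them, together with the different ends of the transcripts.
In BimEL, lacking in BimL: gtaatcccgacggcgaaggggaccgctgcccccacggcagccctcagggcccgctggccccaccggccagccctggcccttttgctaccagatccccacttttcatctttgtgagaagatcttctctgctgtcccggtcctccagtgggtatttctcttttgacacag
In BimL, lacking in BimS: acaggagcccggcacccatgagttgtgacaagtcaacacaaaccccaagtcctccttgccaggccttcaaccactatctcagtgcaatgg

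Levels of different genes are compared as FPKM, in which the fragments of a gene are divided by its length and by the sample's depth. Mcl1 had the highest level, with a mean of 93.8 FPKM over the 6 samples and a range from 82.99 to 103. Bcl2a1b followed at 76.3 FPKM, a range of 54.3 to 90.04 that overlapped that of Mcl1. A gap of 2.27-fold in mean separated Bcl2a1b from Bax (33.7 FPKM), and every sample's Bcl2a1b lay above every sample's Bax. Bax, Bak1 (29.5), Bcl2a1d (26.3), Bcl2l1 (22.8) and Bid (18.0 FPKM) formed a middle order in which each neighbour overlapped the next. Bcl2 stood apart below them at 8.02 FPKM, Bcl2l11 below it at 4.92, and Pmaip1 lowest at 2.10 FPKM, and none of these 3 overlapped its neighbours. Among the tested genes, Mcl1 and Bcl2a1b lay above 96.6% and 95.8% in mean FPKM, and Pmaip1 above 37.3%.

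**Figure D1:**
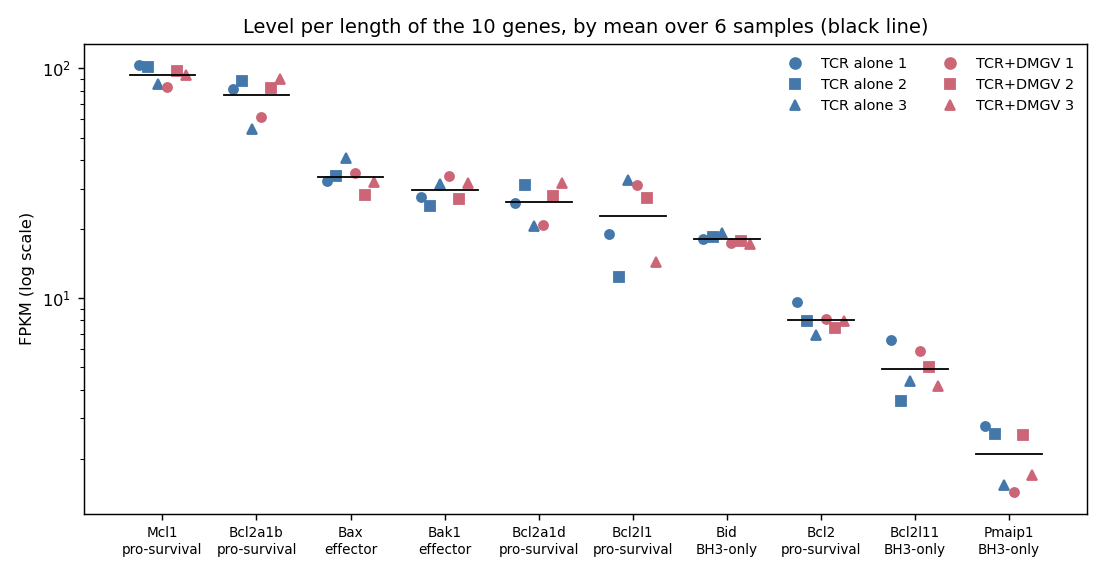
FPKM on a log axis of the 10 genes in order of their mean, one point a sample (blue, TCR alone; red, TCR+DMGV; the symbol gives the replicate) and a black line at the mean over 6 samples. Mcl1 (93.8 FPKM) and Bcl2a1b (76.3 FPKM) lead, Bcl2, Bcl2l11 and Pmaip1 form the low end, and blue and red points intermix in all genes except Bid.

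Summed by role, the 5 pro-survival genes held most of the family's FPKM. Their sum was 239, 240 and 200 FPKM in TCR alone replicates 1 to 3 and 205, 242 and 237 FPKM in TCR+DMGV replicates 1 to 3. These are 67.3% to 75.1% of the 10 genes' summed FPKM. The effectors Bax and Bak1 summed to 60.2, 59.2 and 72.1 FPKM in TCR alone and to 68.8, 54.9 and 63.8 FPKM in TCR+DMGV. The BH3-only genes Bcl2l11, Bid and Pmaip1 summed to 27.4, 24.7 and 25.2 FPKM in TCR alone and to 24.8, 25.2 and 23.1 FPKM in TCR+DMGV. The groups overlapped in all 3 sums. The lowest pro-survival sums and the highest effector sums both belonged to TCR alone replicate 3 and TCR+DMGV replicate 1, the pair that stood apart on the first component.

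Among the pro-survival genes, Mcl1 (ENSMUSG00000038612.16, chromosome 3, 95658788 to 95663176, forward strand in GRCm38) encodes the short-lived guardian that activated T cells depend on. It had 392, 395 and 321 CPM in TCR alone replicates 1, 2 and 3 and 313, 380 and 366 CPM in TCR+DMGV replicates 1, 2 and 3. The 2 low values, 321 and 313 CPM, are one from each group, and they are again the pair that stood apart. The log2 fold change was -0.07 (standard error 0.11, 95% confidence interval -0.33 to 0.20), a fold of 0.955 with an interval from 0.794 to 1.15.

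Bcl2 itself (ENSMUSG00000057329.7, chromosome 1, 106538178 to 106714274, reverse strand), the founding survival gene, had 98.6, 83.3 and 69.6 CPM in TCR alone and 82.3, 77.9 and 84.2 CPM in TCR+DMGV. All 3 TCR+DMGV values lay inside the TCR alone range. Its log2 fold change was -0.04 (standard error 0.13, interval -0.35 to 0.26). An antisense gene, D630008O14Rik, overlaps 33103 bases of the Bcl2 locus, introns included, and held 228 to 484 counts per sample. The strand setting of the authors' counting is not stated. Whether reads of the 2 were kept apart where their exons might overlap is therefore not known.

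Bcl2l1 (ENSMUSG00000007659.18, chromosome 2, 152780668 to 152831728, reverse strand), which encodes BCL-XL, varied more within groups than the other 9. It had 97.3, 65.2 and 164 CPM in TCR alone and 158, 143 and 75.9 CPM in TCR+DMGV, a 2.51-fold range. High and low samples occurred in both groups, and the highest value of each group was in the pair that stood apart. Its spread within groups was larger than that of 86.4% of the genes tested. The log2 fold change was 0.21 with a standard error of 0.38, and its interval of -0.68 to 1.09 takes in folds from 0.624 to 2.13. Changes of up to that size in either direction are not excluded by these 3 against 3 samples.

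The A1 genes are NF-kB targets in lymphocytes and myeloid cells. Bcl2a1b (ENSMUSG00000089929.1, chromosome 9, 89199209 to 89207827, forward strand) had 74.2, 82.5 and 48.7 CPM in TCR alone and 55.3, 76.6 and 84.6 CPM in TCR+DMGV. Bcl2a1d (ENSMUSG00000099974.1, chromosome 9, 88723285 to 88731914, reverse strand) had 24.9, 30.6 and 19.6 CPM in TCR alone and 19.9, 27.5 and 31.4 CPM in TCR+DMGV. In both genes the lowest sample of each group was in the pair that stood apart. The log2 fold changes were 0.08 (standard error 0.23, interval -0.46 to 0.61) for Bcl2a1b and 0.07 (standard error 0.21, interval -0.43 to 0.58) for Bcl2a1d. The ratio of Bcl2a1b to Bcl2a1d in FPKM stayed between 2.63 and 3.15 in the 6 samples, while Bcl2a1b itself ranged from 54.3 to 90.04 FPKM. The shared bases shown above bear on both genes. Gm29094, a gene annotated on the same strand over 8449 bases of Bcl2a1b, held 116 to 291 counts per sample.

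**Figure D2:**
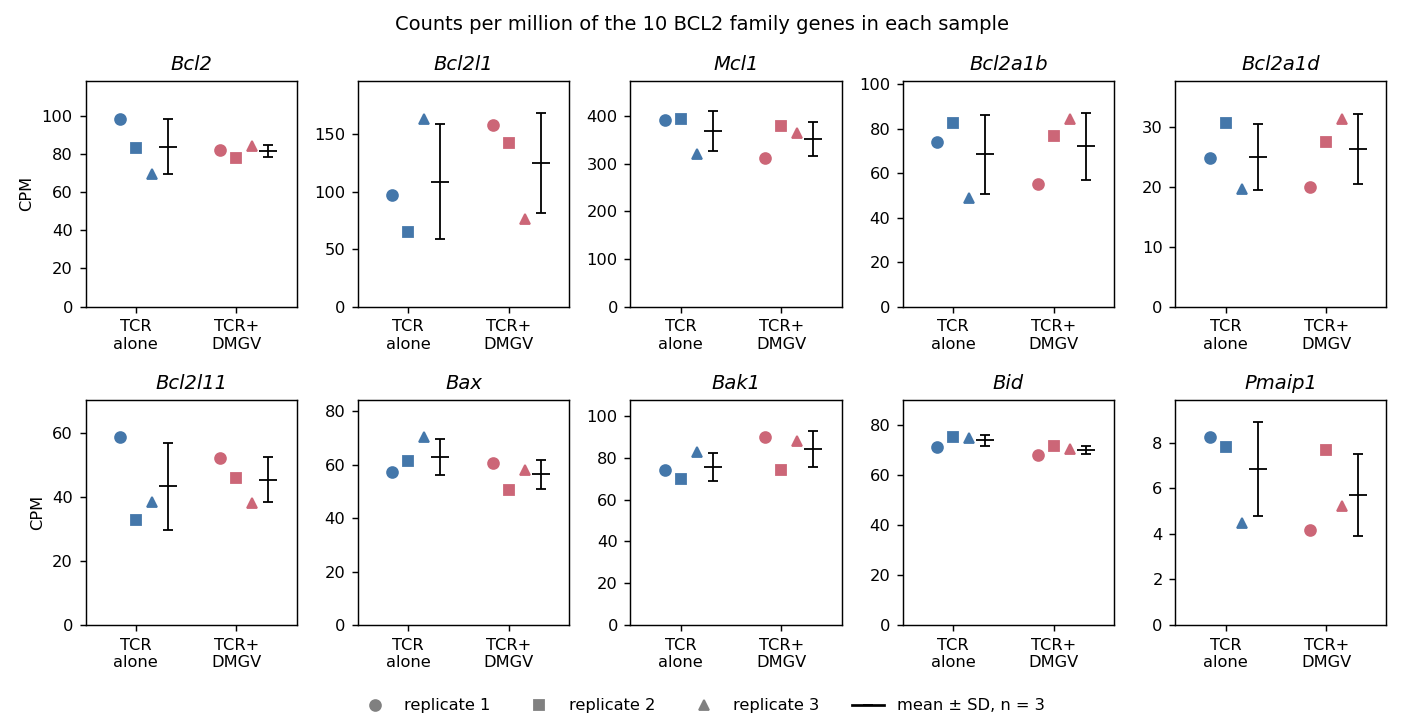
CPM (y axis from 0) of each gene in the 3 TCR alone samples (blue) and the 3 TCR+DMGV samples (red), with the symbol giving the replicate and the black bar the mean ± SD. The groups overlap in all 10 panels, Bcl2l1 runs from 65.2 to 164 CPM and Bid only from 68.3 to 75.3 CPM.

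The effector Bax (ENSMUSG00000003873.11, chromosome 7, 45461697 to 45466898, reverse strand) had 57.1, 61.3 and 70.3 CPM in TCR alone and 60.7, 50.4 and 58.0 CPM in TCR+DMGV. The lowest value was in TCR+DMGV and the highest in TCR alone, with the other 4 intermixed. Its log2 fold change was -0.16 (standard error 0.12, interval -0.43 to 0.11). The effector Bak1 (ENSMUSG00000057789.13, chromosome 17, 27019810 to 27029009, reverse strand) had 74.2, 69.7 and 83.0 CPM in TCR alone and 89.9, 74.2 and 88.1 CPM in TCR+DMGV. Of the 3 TCR+DMGV values, 2 lay above every TCR alone value. Its log2 fold change was 0.15 (standard error 0.11, interval -0.11 to 0.41). Neither effector passed the test.

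The BH3-only gene Bcl2l11 (ENSMUSG00000027381.16, chromosome 2, 128126038 to 128162547, forward strand) had 58.8, 33.0 and 38.4 CPM in TCR alone and 52.2, 46.1 and 38.3 CPM in TCR+DMGV. All 3 TCR+DMGV values lay inside the TCR alone range. The log2 fold change was 0.07 (standard error 0.23, interval -0.46 to 0.60). Bid (ENSMUSG00000004446.12, chromosome 6, 120891930 to 120916853, reverse strand), which caspase cleavage turns into its active form, had 71.5, 75.3 and 75.1 CPM in TCR alone and 68.3, 71.6 and 70.4 CPM in TCR+DMGV. It was the steadiest member, with a spread within groups above that of only 0.913% of the genes tested. Its log2 fold change of -0.08 (standard error 0.07) had the narrowest interval of the 10, from -0.25 to 0.10.

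Bid was also the member whose group order depended on the scale. In FPKM it had 18.1, 18.5 and 19.3 in TCR alone and 17.5, 17.7 and 17.2 in TCR+DMGV, so that the groups did not overlap (1 of the 10 members, against 7.85% of all genes tested in FPKM). In CPM, 71.5 in TCR alone and 71.6 in TCR+DMGV overlapped. On log2(FPKM + 1) the difference was -0.09 in limma, with an adjusted p of 1.00. The gene Bcl2l13 overlaps 913 bases of Bid on the other strand and held 3404 to 4397 counts per sample.

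Pmaip1 (ENSMUSG00000024521.7, chromosome 18, 66458533 to 66465565, forward strand), which encodes the MCL1-binding NOXA and is a p53 target, had the fewest counts of the 10, from 185 to 331 per sample. It had 8.24, 7.82 and 4.47 CPM in TCR alone and 4.18, 7.69 and 5.20 CPM in TCR+DMGV. The pair that stood apart gave the lowest value of each group, 4.47 and 4.18 CPM. The log2 fold change of -0.27 was the largest in size among the 10, and its standard error of 0.31 was larger still (interval -0.99 to 0.46).

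**Figure D3:**
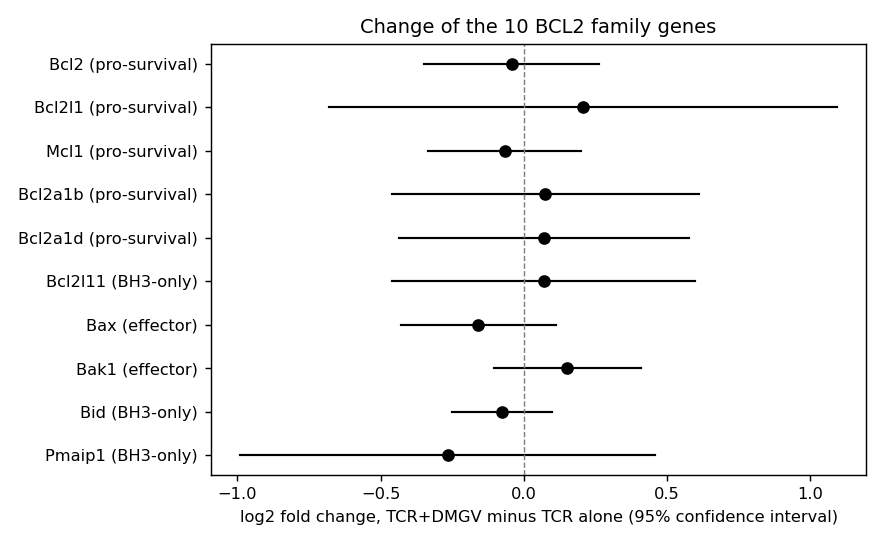
Log2 fold change of the 10 genes (x axis, TCR+DMGV minus TCR alone), with the 95% confidence interval of edgeR's quasi-likelihood fit as the line and each gene's role in brackets. All 10 intervals include 0, from the narrowest for Bid (-0.25 to 0.10) to the widest for Bcl2l1 (-0.68 to 1.09).

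Without TCR alone replicate 3 and TCR+DMGV replicate 1, 0 of the 10 members passed, and 12 of all 14888 genes tested did. The log2 fold change was then 0.43 for Bcl2l1, -0.31 for Pmaip1, 0.18 for Bak1, -0.16 for Bcl2, -0.12 for Bax, 0.09 for Bcl2a1d, -0.08 for Mcl1, -0.05 for Bid and 0.04 for Bcl2a1b. Bcl2l11 changed its sign, to -0.12. The values of Bcl2l1 and Bcl2 grew by more than 1.5 times, and neither passed (adjusted p of 0.809 and 0.804 in edgeR).

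The balance of opposing members is often read as a ratio, and 3 such ratios were set out. Bax to Bcl2 in FPKM was 3.36, 4.27 and 5.87 in TCR alone and 4.28, 3.76 and 4.002 in TCR+DMGV, or 4.50 ± 1.27 and 4.01 ± 0.264 (SD, n = 3 each). The TCR+DMGV values lay inside the TCR alone range. Bcl2l11 to Bcl2 was 0.679, 0.450 and 0.629 in TCR alone and 0.723, 0.674 and 0.518 in TCR+DMGV, or 0.586 ± 0.120 and 0.638 ± 0.107 (SD, n = 3 each), also overlapping. Mcl1 to Pmaip1 in FPKM was 36.9, 39.2 and 55.6 in TCR alone and 58.0, 38.4 and 54.7 in TCR+DMGV, again overlapping. The ratios are of RNA, and the proteins were not measured here.

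Bak1 to Bax in FPKM was 0.852, 0.744 and 0.773 in TCR alone and 0.971, 0.964 and 0.995 in TCR+DMGV, or 0.790 ± 0.0556 and 0.977 ± 0.0163 (SD, n = 3 each). The groups did not overlap on either scale, since in CPM the ratio was 1.14 to 1.30 in TCR alone and 1.47 to 1.52 in TCR+DMGV. Both samples of the pair that stood apart lay within their own group's values. This ratio was chosen after the values of its genes were seen and is a description without a test. Of the 45 ratios that 10 genes can form, it was the 1 whose groups did not overlap in CPM, while 8.9% of the ratios between all pairs of tested genes with a count in every sample did not overlap.

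**Figure D4:**
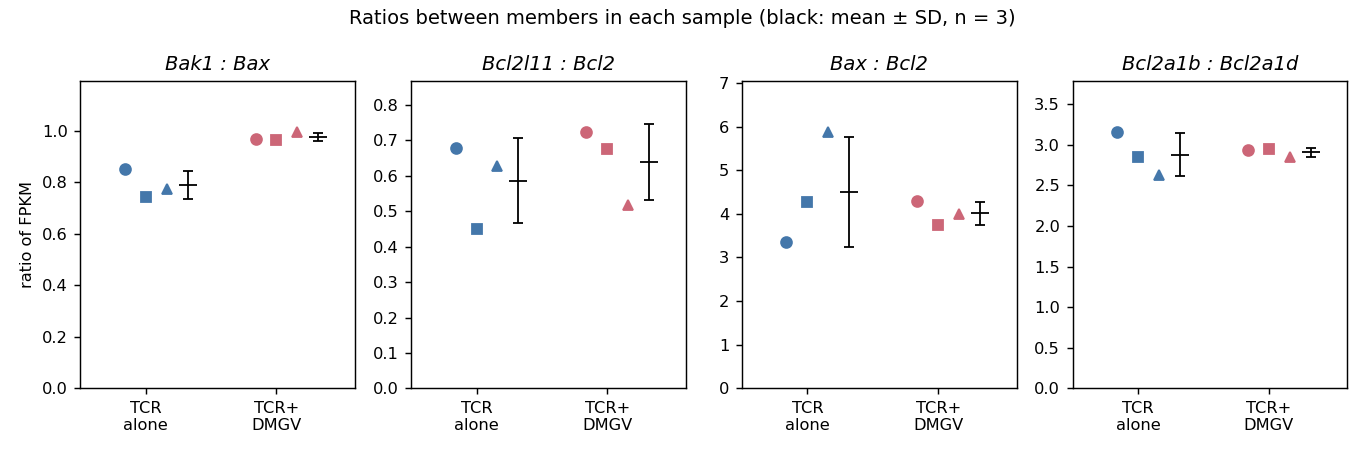
Ratios of FPKM (y axes from 0) between members in each sample, TCR alone in blue and TCR+DMGV in red, with the mean ± SD in black. Bak1 to Bax is the panel without overlap (0.744 to 0.852 against 0.964 to 0.995), and Bcl2a1b to Bcl2a1d the one with the smallest relative range (2.63 to 3.15).

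Of the 38 annotated transcripts, 37 had a count in at least 1 sample, 30 passed edgeR's filter on low counts, and 16 held 10% or more of their gene's transcript counts in some sample. By edgeR's quasi-likelihood test 0 of the 30 passed, as did 0 of all 38401 transcripts tested (0.0%). At an unadjusted p under 0.05 there were 0 of 30, against 1235 of all (3.22%). DESeq2, run without that filter, called 387 of the 53479 transcripts to which it gave an adjusted p (0.724%), 0 of them from the members. The CPM of the groups separated in 1 of the 30, against 9.25% of all transcripts tested. That was Bcl2l11-206, a processed transcript with 49, 65 and 52 counts in TCR alone, where TCR+DMGV had 16, 43 and 34. Transcripts that share exons cannot be counted directly, so these counts are estimates of the authors' software, and the counts of a transcript can move while those of its gene do not.

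Bcl2a1b, Bcl2a1d and Pmaip1 had 1 transcript each. In another 3 genes 1 transcript took nearly all counts: Mcl1-201 held 99.7% to 100.0%, Bcl2-201 98.2% to 99.5% and Bak1-202 98.8% to 99.4%. Mcl1-201 encodes the full 993-base coding sequence, and the other annotated transcript, Mcl1-202 with 855 coding bases, held at most 0.264%. Of the tested member transcripts, 27 belong to a gene that has another one. In shares of the transcript counts the groups did not overlap in 4 of these 27, against 9.21% of all such transcripts. Bak1-202, Bax-205 and Bcl2-202 were higher in TCR+DMGV, and Bcl2-201 was lower. Bcl2 has only these 2 transcripts, so their shares mirror each other and are 1 difference counted 2 times. It rests on 13 to 59 counts of Bcl2-202 per sample. The differences in Bcl2 and Bak1 were small, with means in TCR alone and TCR+DMGV of 99.05% and 99.4% for Bak1-202 and of 99.4% and 98.8% for Bcl2-201. In shares of the transcript FPKM it was 2 of the 27, Bak1-202 and Bax-205, against 9.28%.

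Bcl2l1 was divided between 3 transcripts that did not keep their proportions. Bcl2l1-201 and Bcl2l1-202 have the same 699 coding bases, those of BCL-XL, and differ mainly at the 5′ end. They share 2287 bases, with 130 found only in Bcl2l1-201 and 281 only in Bcl2l1-202 when the pair is compared. Against all transcripts of the gene, 22 bases are only in Bcl2l1-201 and 0 only in Bcl2l1-202. The division of counts between the 2 is thus uncertain. The counts of Bcl2l1-201 were 241, 1246 and 4999 in TCR alone, whereas TCR+DMGV gave 218, 4492 and 233. The counts of Bcl2l1-202 were 1964, 65 and 475 in TCR alone, whereas TCR+DMGV gave 5168, 265 and 1535. Both groups thus held samples with mostly one and samples with mostly the other, and the range was 24.7-fold in CPM for Bcl2l1-201 and 73.5-fold for Bcl2l1-202. Added together, the BCL-XL transcripts had 57.9, 32.3 and 134 CPM in TCR alone and 122, 111 and 44.6 CPM in TCR+DMGV, a 4.16-fold range.

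The third transcript, Bcl2l1-206, is annotated with 627 coding bases and has 124 bases in no other transcript of the gene. It had 34.99, 27.4 and 26.9 CPM in TCR alone and 30.6, 25.6 and 25.7 CPM in TCR+DMGV, a 1.37-fold range. As the authors' software divided the counts, the variation of Bcl2l1 between samples lay in the BCL-XL transcripts and not in Bcl2l1-206. The share of the BCL-XL transcripts in all transcript counts of the gene was 59.7%, 49.3% and 80.7% in TCR alone and 76.7%, 77.4% and 58.8% in TCR+DMGV.

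Bid showed a steady sum and a shifting division. Bid-201 and Bid-204 have the same 585 coding bases, so the coding sequence of Bid-204 is not cut short. Bid-204 is annotated as a target of nonsense-mediated decay, a pathway that removes messages. The 2 transcripts share 1787 bases, with 402 only in Bid-201 and 628 only in Bid-204 as a pair. The counts of Bid-204 were 619, 1850 and 1306 in TCR alone, whereas TCR+DMGV gave 108, 2036 and 66. The counts of Bid-201 were 2070, 1187 and 1751 in TCR alone, whereas TCR+DMGV gave 2922, 1021 and 2695. TCR+DMGV replicates 1 and 3 were the lowest for Bid-204, with 3.19% and 2.09% of the gene's transcript FPKM, and TCR+DMGV replicate 2 the highest, with 62.1%. In TCR alone the share ran from 20.5% to 55.7%. The sum of both transcripts varied 1.09-fold in CPM.

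**Figure D5:**
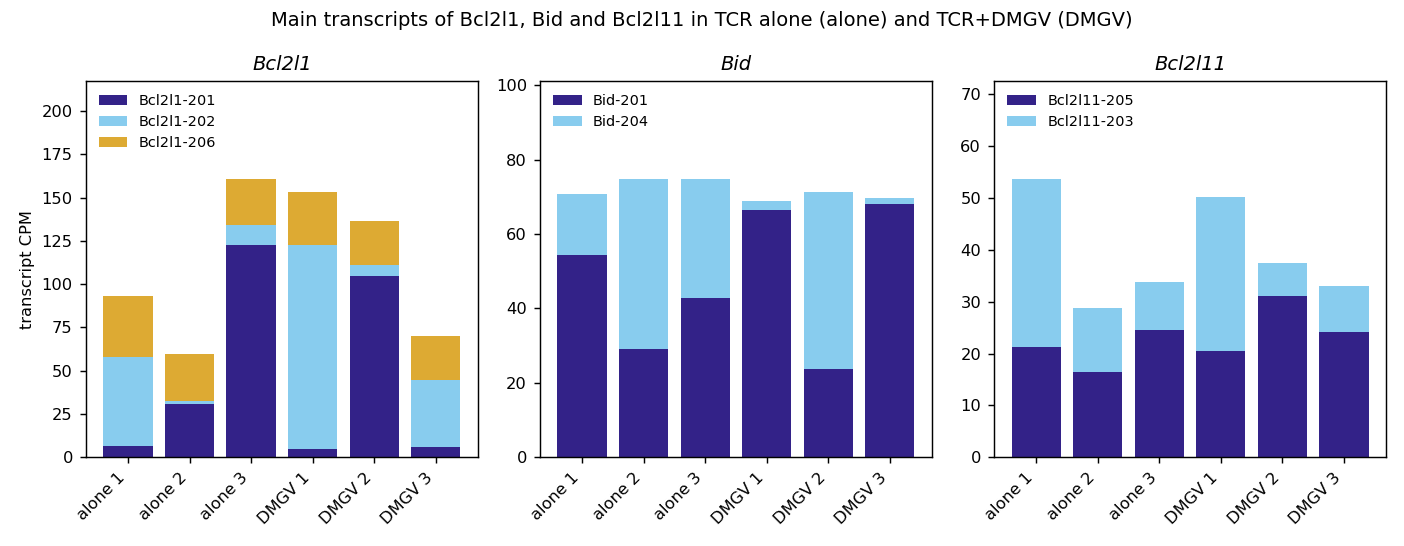
Stacked CPM (y axis from 0) of the main transcripts of Bcl2l1, Bid and Bcl2l11 in the 3 TCR alone samples (alone) and the 3 TCR+DMGV samples (DMGV). Bcl2l1-206 is even while Bcl2l1-201 and Bcl2l1-202 trade places, the Bid bars keep their height (1.09-fold range) with a changing division, and Bcl2l11-203 is tallest in replicate 1 of each group.

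The isoforms of Bcl2l11, whose parting stretches are shown above, differ in how strongly they kill and in how they are held on the cytoskeleton. In transcript FPKM, BimEL had 3.80, 2.84 and 4.39 in TCR alone and 3.65, 5.37 and 4.18 in TCR+DMGV. BimL had 8.23, 3.02 and 2.31 FPKM in TCR alone and 7.53, 1.57 and 2.19 FPKM in TCR+DMGV. BimL was thus above BimEL in replicates 1 and 2 of TCR alone and in replicate 1 of TCR+DMGV, and below it in the other 3 samples. The 2 transcripts share 3538 bases, and 0 are only in that of BimL. The division between them, and so this order, is uncertain. BimS, the shortest, had 0.390 to 0.962 FPKM in TCR alone and 0.502 to 1.32 FPKM in TCR+DMGV. As shares of the gene's transcript FPKM, BimEL made 34.6% ± 10.2 and 41.2% ± 11.0, BimL 38.1% ± 16.2 and 32.5% ± 23.4, and BimS 6.45% ± 3.70 and 8.82% ± 5.47 in TCR alone and TCR+DMGV (SD, n = 3 each). The groups overlapped in all 3 isoforms. By counts, which grow with length, the 5036-base BimEL transcript took a larger share, 49.7% in TCR alone and 56.3% in TCR+DMGV.

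Bax had 2 main transcripts of about equal level. Bax-201, with the 576-base coding sequence, was counted 893, 1313 and 1282 times in TCR alone, and TCR+DMGV gave 1100, 807 and 1018 counts. Bax-203, with 517 annotated coding bases and 435 bases in no other transcript, was counted 1103, 981 and 1367 times in TCR alone, and TCR+DMGV gave 1331, 1159 and 1008 counts. The shorter Bax-205 (513 coding bases) made 9.09%, 9.40% and 9.63% of the gene's transcript FPKM in TCR alone and 11.2%, 10.4% and 13.2% in TCR+DMGV. These shares did not overlap between the groups, as in 9.28% of all transcripts of that kind, while the CPM of Bax-205 did, and its edgeR log2 fold change was 0.15 (standard error 0.27).

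Without TCR alone replicate 3 and TCR+DMGV replicate 1, 0 member transcripts passed. The log2 fold changes of the transcripts that trade places then turned, from -0.46 to 1.57 for Bcl2l1-201 and from 1.33 to -0.25 for Bcl2l1-202. That of Bcl2l11-203 went from -0.26 to -1.55, that of Bcl2l11-205 from 0.28 to 0.54 and that of Bid-204 from -0.86 to -0.34.

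Of 16 other BCL2 family genes, 11 passed the filter on low counts, with 5 higher, 6 lower and 0 past the adjusted threshold. Their median log2 fold change was -0.06. The 5 left out were Bcl2a1c, Bcl2l10, Hrk, Bok and Bcl2l15. Bnip3l, a mitophagy receptor and the highest of them per length at 13.9 FPKM, had a log2 fold change of -0.06 (standard error 0.17). Its relative Bnip3 had 35.4, 29.5 and 21.5 CPM in TCR alone and 17.7, 21.0 and 22.6 CPM in TCR+DMGV. Its log2 fold change of -0.49 (standard error 0.19) was the only one of the list at an unadjusted p under 0.05, with an adjusted p of 0.999 in edgeR, and the groups overlapped. Bcl2l2, which encodes the pro-survival BCL-W, had 6.92, 8.38 and 1.98 CPM in TCR alone and 9.17, 8.34 and 8.56 CPM in TCR+DMGV. Its log2 fold change was 0.59 (standard error 0.45), and TCR alone replicate 3 lay far below the other 5 samples. Without TCR alone replicate 3 and TCR+DMGV replicate 1 it was 0.14 (standard error 0.18). Bbc3, which encodes the BH3-only PUMA, had a log2 fold change of -0.17 (standard error 0.27).

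Around the pore, all 28 genes of a list of death receptor signalling, outer membrane channels, cytochrome c, caspases, their adaptors and inhibitors, and nucleases were tested, with 11 higher, 17 lower and 0 past the adjusted threshold or an unadjusted p under 0.05. Their median log2 fold change was -0.02. Vdac1, the main channel of the outer membrane, was highest at 84.3 FPKM with a log2 fold change of -0.02 (standard error 0.10). Dffb, the nuclease that cuts DNA between nucleosomes, had 18.1, 17.1 and 17.9 CPM in TCR alone and 20.2, 21.1 and 19.8 CPM in TCR+DMGV, a log2 fold change of 0.20 (standard error 0.09). Its groups did not overlap in CPM, as in 8.86% of all genes tested. Fadd, the adaptor of death receptors, had a log2 fold change of -0.23 (standard error 0.12).

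Of 20 genes that control the family's genes or proteins, 18 were tested, with 13 higher, 5 lower and 0 past the adjusted threshold or an unadjusted p under 0.05. Trp73 and Trim17 did not pass the filter. Their median log2 fold change was 0.06. Myc was highest at 107 FPKM, with a log2 fold change of 0.07 (standard error 0.08). Trp53, which encodes the activator of Bax, Bbc3 and Pmaip1, had 205, 218 and 232 CPM in TCR alone and 234, 231 and 247 CPM in TCR+DMGV, a log2 fold change of 0.12 (standard error 0.08). Ddit3, the stress factor CHOP that acts on Bcl2l11, had a log2 fold change of -0.28 (standard error 0.17). Stat5b, which carries interleukin signals to Bcl2 and Bcl2l1, had a log2 fold change of -0.21 (standard error 0.13), and its lowest value, 164 CPM, was that of TCR+DMGV replicate 1.

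Without the pair that stood apart, 0 genes of these 3 lists passed the adjusted threshold in edgeR. The number higher and lower was then 6 and 5 in the other BCL2 family, 13 and 15 in the list around the pore, and 10 and 8 among the genes that control the family. At an unadjusted p under 0.05 were 2 of 11, 0 of 28 and 0 of 18, against 972 of all 14888 genes tested in that fit. The log2 fold change was then -0.57 for Bnip3 (standard error 0.14) and -0.06 for Stat5b (standard error 0.09), and Vdac1 went from -0.02 to 0.03.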

How the data were processed

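The authors filtered reads with SOAPnuke, aligned them with HISAT2 (2.0.4 per the labels) and estimated expression with StringTie from mRNA libraries, and deposited whole-number counts and FPKM per gene and per transcript. How coverage became counts, and whether strand was used, is not given in the sources used here. The submitters' processing notes name mm9, yet 99.7% of gene identifiers match GENCODE M21 (GRCm38) without their version, so symbols, coordinates and sequences come from that annotation.

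Gene and transcript counts were tested with edgeR 4.0.16 (TMM, filterByExpr, quasi-likelihood, both groups only, no covariates) in R 4.3.3, with Benjamini-Hochberg adjustment over all features tested, and checked with DESeq2 1.42.0 and limma 3.58.1. FPKM served to compare levels. The fits were tested on simulated data. P-values measure the spread between these samples. No 2 samples agreed within sampling noise (median chi-square per gene 3.89 to 8.93).

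Members and lists were chosen with earlier results of these data known. Named were the 10 members, in each other list the gene of highest mean FPKM and up to 3 of smallest p, and transcripts with 10% of their gene's counts in some sample. Other names were chosen after their values were seen. Some items that the rule names are not reported here. Alternatives were other size factors, filters and tools, summed transcript counts, a replicate block and left-out samples. Fits of the other lists and single transcripts without 2 samples were added after the data were seen. Python 3.11.15, pandas 2.3.3 and matplotlib 3.10.9 were used.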

Additional observations from a re-analysis of the deposited data

How the results depend on the processing

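In every alternative run on genes, 0 of the 10 members passed the threshold, as did 0 of their transcripts with all transcripts that had a count, DESeq2, the replicate block, 4 samples and each sample left out, the alternatives run on transcripts, and 0 members reached an unadjusted p under 0.05. Among all genes the number past the threshold was 2, against 1 with library size alone, 1 with all genes that had a count, 14 with DESeq2, 0 with limma on log2(FPKM + 1) (517 at an unadjusted p under 0.05), 0 with limma on log2(FPKM + 0.1) (510), 12 without TCR alone replicate 3 and TCR+DMGV replicate 1, and 0 to 5 with each sample left out; the cause was not tested. Whether equal replicate numbers pair the samples cannot be settled with 3 samples in each group. Deviations of equally numbered samples correlated at -0.15, 0.12 and -0.15 across genes for replicates 1, 2 and 3. The highest correlation of each TCR alone sample with a TCR+DMGV sample of another number was 0.10, 0.09 and 0.31. With the replicate number as a block, 0 genes passed (340 at an unadjusted p under 0.05).

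With each sample left out, the log2 fold change ran from -0.15 to 0.075 for Bcl2 (positive without TCR alone replicate 1), from -0.062 (without TCR alone replicate 2) to 0.63 (without TCR alone replicate 3) for Bcl2l1, from -0.15 to 0.012 for Mcl1 (positive without TCR+DMGV replicate 1), from -0.11 to 0.23 for Bcl2a1b and -0.077 to 0.24 for Bcl2a1d (both negative without TCR alone replicate 3 or TCR+DMGV replicate 3), and from -0.10 to 0.33 for Bcl2l11 (negative without TCR alone replicate 2 or 3 or TCR+DMGV replicate 1). It kept its sign for Bax (-0.24 to -0.07), Bak1 (0.09 to 0.24), Bid (-0.12 to -0.06) and Pmaip1 (-0.54 to -0.09). In the other settings 89 of 90 fold changes of members kept their direction, and Bcl2l11 was -0.12 without the pair that stood apart. With FPKM in place of counts, 12 of 32 transcript shares moved by more than their SD. The fewest counts behind a member were 185, for Pmaip1 in TCR alone replicate 3. Bcl2a1b and Bcl2a1d share bases with each other and with Bcl2a1a, and overlapping genes bear on Bcl2, Bcl2a1b, Bak1 and Bid. For Bak1 this gene is Ggnbp1, on the other strand over 9200 bases of the locus, with 30 to 66 counts per sample.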
